A study of Homo sapiens with 4 samples.

Results

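The ZNF genes outside chromosome 19 are the members of the human zinc-finger gene family that do not lie in the large zinc-finger clusters of that chromosome. They were taken as all protein-coding genes in RefSeq's annotation of GRCh38.p14 (hg38) whose symbol is ZNF followed by a digit, on chromosomes 1 to 18, 20 to 22 and X. This gave 267 genes of 19817 protein-coding genes, on 20 chromosomes, since chromosomes 13 and 21 hold none. The set includes 3 read-through loci (ZNF511-PRAP1, ZNF660-ZNF197 and ZNF664-RFLNA), which share ends with their component genes, and ZNF593OS, which lies opposite ZNF593. They were set beside 18140 other protein-coding genes of the same chromosomes. Binding of ETS1 and of RUNX1 was measured by CUT&Tag, in which an antibody directs a DNA-cutting transposase to its target on chromatin, in 6T-CEM, an established cell line from a human acute leukaemia of the T-cell lineage. The groups were 2 libraries made with an ETS1 antibody (Santa Cruz) and 2 made with a RUNX1 antibody (Abcam), all of the same line, with no treatment named in the labels, so that every value comes from a single leukaemia. Peaks were called by the authors in each library against IgG, the antibody control. The labels do not state whether the libraries came from separate cultures, and p-values therefore measure only the spread between these libraries, which may be technical.

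Most ZNF genes encode proteins with tandem C2H2 zinc fingers, small zinc-holding folds that each contact a few bases of DNA. Many also carry a KRAB domain, which recruits the co-repressor TRIM28 and silencing enzymes, and silence transposable elements. Others carry a SCAN domain, through which zinc-finger proteins pair with each other, and some act on RNA, ribosomes or protein ubiquitination. ETS1 is a T-lineage transcription factor that binds sites with a GGAA core, and RUNX1 is a master regulator of blood and T-cell development that binds TGTGGT and close variants.

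Peak lists were about the same size within an antibody, with 6082 and 5625 peaks for ETS1 and 25360 and 25001 for RUNX1. At the gene ends studied here, the recovered pileup (reads or fragments stacked at a summit) had a median of 66 and 61.5 for ETS1 and of 109 and 100.5 for RUNX1, and total read depth is unknown. The weakest peaks had a pileup of 25 and 21 for ETS1 and of 31 and 27 for RUNX1. Of 9 T-lineage marker genes, 4 had ETS1 and 8 RUNX1 at an end, CD5 having neither, beside 17.4% and 45.9% of the 18140 other genes, which is occupancy and not expression. A lower fold in a bulk library can come from fewer bound cells or from less binding per cell, and these cannot be told apart.

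Among ZNF genes outside chromosome 19, the shares with ETS1 and with RUNX1 at a gene end were both above those of other genes. A reproducible ETS1 region (one holding a peak of both libraries) lay within 1 kb of an end of 62 of 267 ZNF genes (23.2%, 95% Wilson interval 18.6 to 28.6), against 17.4% of the other genes. A RUNX1 region lay at an end of 148 ZNF genes (55.4%, 49.4 to 61.3), against 45.9%. Every ZNF gene with ETS1 also had RUNX1, so that 62 genes had both (23.2%, against 17.2%), 86 had RUNX1 alone (32.2%, against 28.8%), none had ETS1 alone (against 0.243%) and 119 had neither (44.6%, against 53.8%). A count of 0 of 267 genes leaves a share of up to 1.42% inside its interval. The RUNX1 lists are longer. With the 5611 strongest peaks of each library, ETS1 was at 60 ZNF genes and both factors at 29, so ETS1 without RUNX1 then occurred. Among genes with RUNX1 at an end, ETS1 was present at 41.9% of the ZNF genes (34.2 to 49.9) and 37.3% of the other genes. The intervals cover counting error only, and neighbouring genes that share a region are not independent.

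The excess was seen in every library. A peak lay at an end of 68 (25.5%) and 69 (25.8%) ZNF genes in ETS1 libraries 1 and 2, and of 160 (59.9%) and 150 (56.2%) in RUNX1 libraries 1 and 2. Other genes had shares of 19.9% and 18.8% for ETS1 and of 47.9% and 47.0% for RUNX1. The ZNF share averaged 25.7% ± 0.265 in ETS1 libraries and 58.1% ± 2.65 in RUNX1 libraries (SD, n = 2 each), a difference of -32.4 percentage points that is larger than the spread between libraries. The RUNX1 lists are longer, and with the 5611 strongest peaks of each library the direction turned, with reproducible ETS1 regions at 60 ZNF genes (22.5%) and RUNX1 regions at 37 (13.9%). The exact permutation test of 2 against 2 libraries, two-sided, gave p = 0.333, the smallest it allows. Relative to other genes in the same library, the ZNF share was 1.33 ± 0.0665 times as high for ETS1 and 1.22 ± 0.0391 times for RUNX1 (exact permutation p = 0.333, two-sided, n = 2 each). That difference of 0.102 was 0.176 between the libraries numbered 2 and 0.0269 between those numbered 1.

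**Figure D1:**
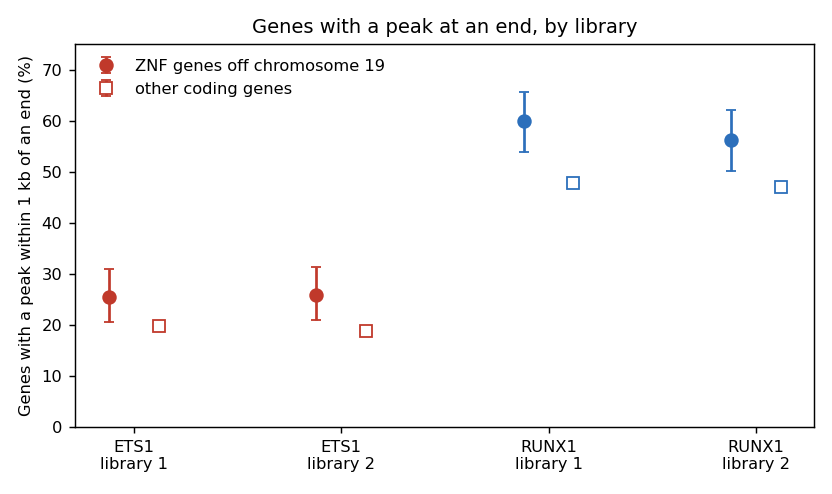
Share of genes (%, y axis) with a peak within 1 kb of either end in each of the 4 libraries (x axis), with filled circles for ZNF genes outside chromosome 19, open squares for other protein-coding genes of the same chromosomes and bars for 95% Wilson intervals. In all 4 libraries the ZNF share (25.5%, 25.8%, 59.9% and 56.2%) lies above that of the other genes (19.9%, 18.8%, 47.9% and 47.0%).

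Of the ZNF genes with a peak in either library, 82.7% had one in both for ETS1 (against 81.4% of other genes) and 90.2% for RUNX1 (against 93.5%). ETS1 peaks were found in both libraries at 62 genes, in library 1 only at 6 and in library 2 only at 7. Among these 13 single-library genes were ZNF143, a general activator of promoters, its close relative ZNF76, and ZNF410, the activator of the chromatin remodeller gene CHD4. For RUNX1 the counts were 147, 13 and 3, and ZNF827, 1 of these 13, is counted among the 148 because its merged region holds a peak of library 2 outside the window. As a description across genes, the folds of the libraries ranked alike, with a Spearman's rho of 0.954 for ETS1 (62 genes) and 0.973 for RUNX1 (148 genes).

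The ETS1 shares differed widely between chromosomes. Chromosomes 12 and 16 held 44 of the ZNF genes and 26 of the 62 with ETS1. On chromosome 12, ETS1 was at 10 of 14 ZNF genes (71.4%, against 20.7% of other genes there) and RUNX1 at 13 (92.9%, against 49.0%). On chromosome 16, ETS1 was at 16 of 30 (53.3%, against 29.0%) and RUNX1 at 20 (66.7%, against 56.3%). On the remaining chromosomes ETS1 was at 36 of 223 ZNF genes (16.1%), against 16.6% of other genes. RUNX1 there was at 115 of 223 (51.6%, against 45.2%). These chromosomes were set apart after their values were seen, for their wide ETS1 gaps, so a lower share without them was fixed by the choice. ETS1 was also above other genes on chromosome 20 (44.4%, against 24.6%), chromosome 10 (29.4%, against 11.2%), chromosome 1 (28.6%, against 18.1%) and chromosome 4 (25%, against 9.40%). The same held on chromosome 6 (33.3%, against 21.0%) and chromosome 14 (33.3%, against 22.2%), and by less on chromosomes 3, 8 and X. Over the 20 chromosomes, the ZNF share was above that of other genes on 11 for ETS1 and on 14 for RUNX1.

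Other chromosomes stood on either side of the background. Chromosome 7 holds the most ZNF genes, 35, of which 2 had ETS1 (5.71%, against 11.99%) and 17 RUNX1 (48.6%, against 39.3%). On the X chromosome RUNX1 was at 7 of 12 ZNF genes (58.3%, against 23.9%) and ETS1 at 1 (8.33%, against 8.25%). On chromosome 18, none of 9 ZNF genes had ETS1 (against 11.2%) and 6 had RUNX1 (66.7%, against 42.9%). Chromosomes 9 and 17 lay the other way, with RUNX1 at 3 of 12 (25%, against 51.2%) and 4 of 11 (36.4%, against 61.2%). With 3 to 35 genes per chromosome, single counts decide these shares.

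**Figure D2:**
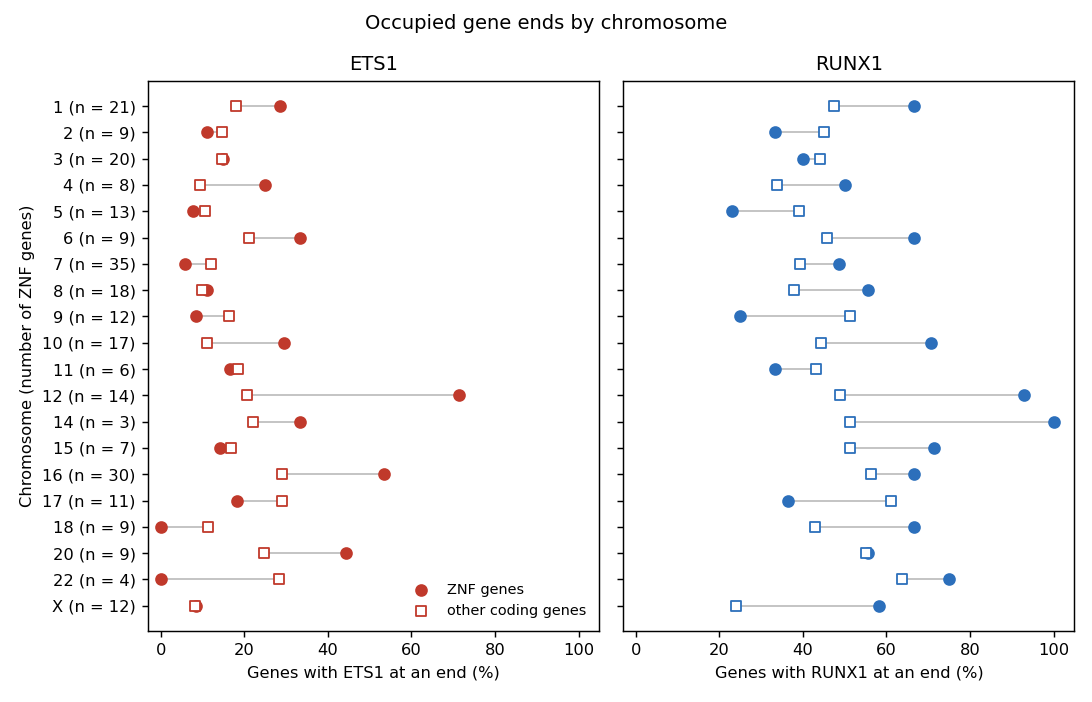
Share of genes (%, x axis) with ETS1 (left) or RUNX1 (right) at an end on each chromosome (y axis, with the number of ZNF genes), as filled circles for ZNF genes and open squares for other protein-coding genes. The widest ETS1 gaps with ZNF genes above are on chromosomes 12 (71.4% against 20.7%) and 16 (53.3% against 29.0%), and the widest such RUNX1 gap outside the 3 genes of chromosome 14 is that of chromosome 12 (92.9% against 49.0%).

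ZNF genes tend to lie in tandem groups that arose by duplication, and the counts ranged from none to nearly all of a group. Taking ZNF genes whose neighbouring ends lie within 250 kb, in runs of at least 4, gave 12 clusters with 78 genes. Beside the 17.4% and 45.9% of other genes, clustered genes had ETS1 in 28.2% of cases and RUNX1 in 59.0%, against 21.2% and 54.0% for the 189 unclustered ones. At the end of chromosome 12 (132918306–133214832), 6 of 7 genes had both factors: ZNF605, ZNF26, ZNF84, ZNF140, ZNF891 and ZNF10. ZNF10 encodes KOX1, whose KRAB domain is the one used in many engineered repressors. ZNF891 and ZNF10 share a single region of each factor, and ZNF268 had neither. The ETS1 folds in that cluster lay between 4.78 ± 0.675 at ZNF605 and 6.88 ± 0.737 at ZNF84 (SD, n = 2), and the RUNX1 folds lay between 4.56 ± 0.350 at ZNF26 and 7.65 ± 0.303 at ZNF10. The ETS1 folds lay around the ZNF median of 5.59, and the RUNX1 folds lay below the ZNF median of 8.58.

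On chromosome 16, at 3112586–3443504, 6 of 7 genes had both factors (ZNF213, ZNF200, ZNF263, ZNF75A, ZNF174 and ZNF597), and 2 of 5 other coding genes in the span had ETS1 and 3 RUNX1. At 30378312–30787205 on the same chromosome, 4 of 9 ZNF genes had ETS1 and 5 RUNX1, among 11 other genes with ETS1 at 6 and RUNX1 at 9. In 5 other clusters no gene had ETS1. The cluster nearest the centromere of chromosome 7 (63998849–64991036) had RUNX1 at 2 of 10 genes (ZNF736 and ZNF138) and ETS1 at none. That of chromosome 3 (44431705–44737083), with ZNF445, an imprinting regulator, had RUNX1 at 3 of 8 (ZNF660 and its read-through locus share a region) and ETS1 at none. The cluster of chromosome 5 (178711512–179083977) had RUNX1 at 1 of 5, ZNF354A, and ETS1 at none. The second cluster of chromosome 7 (149069641–149497809) had RUNX1 at 5 of 8 and ETS1 at none, although ZNF786 there had an ETS1 peak in library 1. Zinc-finger clusters hold similar sequences, and how reads with several matches were treated was not stated, so a lack of peaks in them is uncertain. The near-identical copies ZNF705B, ZNF705D and ZNF705G had neither factor, and ZNF705A had RUNX1 at its 3′ end.

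Most regions lay near transcript starts. The promoter table gives a strand and starts for 218 of the 267 ZNF genes. Of these, ETS1 was at the 5′ end of 58 (26.6%, against 17.6% of other genes) and at the 3′ end of 2 (0.917%, against 2.41%). RUNX1 was at the 5′ end of 124 (56.9%, against 45.5%) and at the 3′ end of 9 (4.13%, against 7.49%). Both genes with ETS1 at the 3′ end, ZNF200 and ZNF597, also had it at the 5′ end, and RUNX1 was at the 3′ end alone in 2, ZNF853 and ZNF705A. The strongest ETS1 summit lay a median of 163 bp from the nearest annotated start and within 250 bp of one in 38 of 58 genes (65.5%). These distances use the starts of the promoter table, which leaves out some outermost 5′ ends. At ZNF362 the summits lie 3 bp (ETS1) and 43 bp (RUNX1) from the 5′ end but far from the listed start. Among the 169 that share no end, 1 had ETS1 at the 3′ end (0.592%, against 0.95%) and 7 RUNX1 (4.14%, against 4.65%). The strongest RUNX1 summit had a median distance of 134 bp, with 90 of 126 within 250 bp (71.4%). Summits of both factors thus fell on either side of the start, with signed medians of -33.25 bp for ETS1 and 33.25 bp for RUNX1, where negative is upstream. Only regions touching the window at a gene end were counted, so closeness to starts is partly built in. Summit distances at other genes are not given, so they cannot be called particular to ZNF genes.

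**Figure D3:**
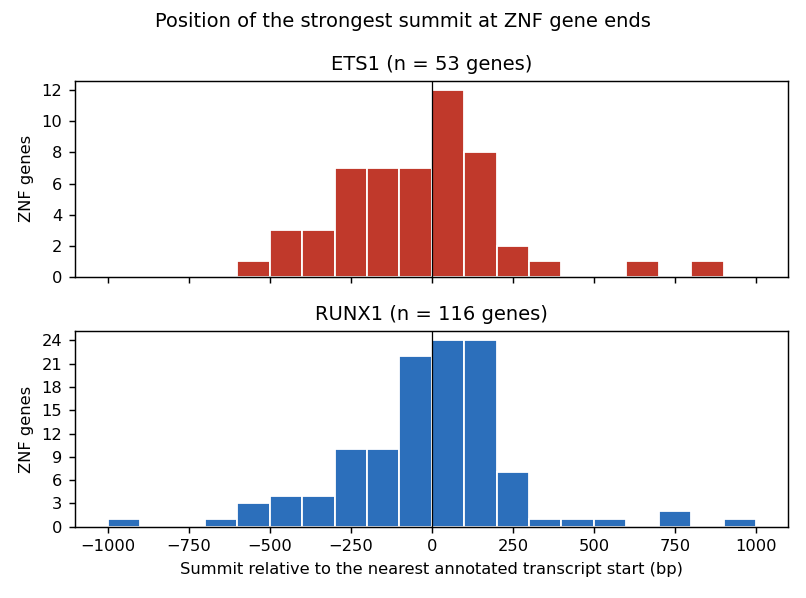
Number of ZNF genes (y axis) by the distance in bp (x axis, negative upstream) from the strongest summit at an end to the nearest annotated transcript start, for ETS1 (top, 53 genes) and RUNX1 (bottom, 116 genes), in steps of 100 bp. Most summits of both factors lie within 250 bp of a start listed in the promoter table. The 5 ETS1 and 10 RUNX1 summits over 1000 bp from any listed start are not drawn. They include those of ZNF362, which lie 3 bp (ETS1) and 43 bp (RUNX1) from its 5′ end.

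Counting any annotated start of the promoter table in place of the 5′ end, 58 ZNF genes had ETS1 (26.6%, against 18.6%) and 130 RUNX1 (59.6%, against 47.7%). This count gains genes with a region at an inner start. It loses genes whose 5′ end is not near a listed start, such as ZNF362. A RUNX1 region lay at an annotated start but not at an outermost end of 8 ZNF genes (3.67%, against 2.71%): ZNF518B, ZNF768, ZNF688, ZNF232, ZNF18, ZNF385C, ZNF343 and ZNF217, an oncogene amplified in breast cancer. ETS1 was at such a start in 3 of them, ZNF768, ZNF688 and ZNF217 (1.38%, against 1.38%). RUNX1 touched the gene but not its ends in 22 of 267 ZNF genes (8.24%, against 8.93%) and ETS1 in 9 (3.37%, against 3.18%). Among those 22, ZNF831 held 7 RUNX1 regions and ZNF423, a partner and inhibitor of the B-cell factor EBF1, held 4.

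Sharing an end with a neighbour went with occupancy. An end of 55 ZNF genes (20.6%, against 28.0% of other genes) lay within 1 kb of an end of another coding gene. Of these 55, 26 had ETS1 (47.3%, interval 34.7 to 60.2, against 33.9%) and 38 RUNX1 (69.1%, 56.0 to 79.7, against 68.2%). Of the 212 that share no end, 36 had ETS1 (17.0%, 12.5 to 22.6, against 11.0%) and 110 RUNX1 (51.9%, 45.2 to 58.5, against 37.3%). Beside a neighbour the RUNX1 share was close to that of other genes, and without one it was higher; the difference between these contrasts was not tested. These counts take a region at either end of the gene, which need not be the shared one. Where a region lies at the shared end, it cannot be given to either gene. Such pairs include ZNF276 with VPS9D1 and ZNF740 with CSAD. ZNF184, in contrast, adjoins ZNF391 at its 3′ end, while its regions lie at its 5′ end.

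The median strength of the regions was close to that at other genes. The median fold over IgG of the strongest region at an end was 5.59 for ETS1 (quartiles 4.44 and 8.02, n = 62 genes), against 5.67 at 3156 other genes, and 8.58 for RUNX1 (5.11 and 13.7, n = 148), against 8.30 at 8335. These folds are the authors' values for each peak and serve only to describe and rank. Very strong regions were few: 2 of 62 ZNF genes (3.23%) exceeded the ETS1 fold above which the top decile of other genes lies (11.3), and 8 of 148 (5.41%) the same limit for RUNX1 (22.98). RUNX1 was stronger where ETS1 was present: it had a median fold of 12.5 at the 62 ZNF genes with ETS1 and of 7.10 at the 86 without, against 12.7 and 6.73 at other genes. With equal numbers of peaks, the ETS1 share of 22.5% stood against 16.9% of other genes, and the RUNX1 share of 13.9% against 13.0%.

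By its strongest regions, ZNF200 had the highest fold of both factors. With the peak nearest to the gene end, its RUNX1 fold was 31.5, below ZNF652 (40.3), ZNF318 (33.6) and ZNF276 (32.0), while its ETS1 fold was the same. In the strongest ETS1 region, at its 5′ end, the fold was 16.5 and 21.01 (mean 18.8 ± 3.16, SD, n = 2). RUNX1 there had 30.1 and 33.0. A second region about 900 bp upstream had ETS1 at 11.6 and 11.1 and the strongest RUNX1 fold, 62.9 and 58.0 (60.5 ± 3.47). One more at the 3′ end had ETS1 at 5.49 and 5.09 and RUNX1 at 30.6 and 29.5. The highest RUNX1 fold stood over a low control, with an IgG expectation of 2.07 and 1.97 and a pileup of 192 and 171, while the ETS1 pileup of 209 and 200 was the highest ETS1 pileup of any ZNF gene studied here. Both libraries of each antibody gave the same 3 regions.

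ZNF384, a transcription factor gene fused to other genes in acute B-lineage leukaemia, was second for ETS1 with 14.5 and 13.9-fold (14.2 ± 0.427), and had 25.1 and 24.2-fold RUNX1 (24.7 ± 0.598). The mean summits of both factors fell on the same base, 305 bp inside the gene. ZNF263, which encodes a repressor with SCAN and KRAB domains, had 11.2 and 10.3-fold ETS1 (10.7 ± 0.630) and 12.5 and 12.2-fold RUNX1 (12.3 ± 0.219), with summits 10 bp apart and about 300 bp upstream of its start (291.5 and 301.5 bp). ZNF597 had its strongest regions, 10.1 ± 0.213 for ETS1 and 17.3 ± 0.740 for RUNX1, at its 3′ end beside NAA60, and weaker ones at its own start (7.61 ± 0.0797 and 7.82 ± 0.840). ZNF646 and ZNF668, which overlap and lie on opposite strands, share a region with 9.85 ± 0.907-fold ETS1 and 21.4 ± 0.281-fold RUNX1. The next ETS1 folds were 9.56 ± 0.219 at ZNF335, 9.38 ± 0.359 at ZNF594, 9.05 ± 0.451 at ZNF75A and 8.84 ± 0.326 at ZNF669, differences of the size of the spread between libraries. ZNF335 encodes a subunit of a histone methyltransferase complex whose mouse counterpart is needed for thymocyte maturation.

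Other genes were picked for their high RUNX1 fold, so a RUNX1 lead was built into the choice. RUNX1 exceeded ETS1 in fold at all but 3 of the 62 genes with both. ZNF652, whose product represses genes together with the co-repressor CBFA2T3, had 3.64 and 3.91-fold ETS1 (3.77 ± 0.193) and 39.98 and 40.7-fold RUNX1 (40.3 ± 0.523), the lowest ratio of ETS1 to RUNX1 fold, 0.0935. Its RUNX1 pileup of 783 and 760 was the highest of the ZNF genes, over an IgG expectation of 18.6 and 17.7. ZNF318, a regulator of IgM and IgD splicing in B cells, had 5.11 and 5.37-fold ETS1 and 34.6 and 32.5-fold RUNX1. ZNF341, which encodes an activator of STAT3 transcription, had 4.40 and 5.09-fold ETS1 and 31.5 and 29.9-fold RUNX1. ZNF276 had 8.56 and 8.84-fold ETS1 and 32.9 and 31.1-fold RUNX1, and ZNF740 had 8.69 and 7.53-fold ETS1 and 29.95 and 24.3-fold RUNX1. In each of these genes every RUNX1 library lay above every ETS1 library. At ZNF141 the ETS1 region was at the 5′ end (4.25 ± 0.219), where RUNX1 had 15.5 ± 1.90, and the strongest RUNX1 region (31.4 ± 0.768) lay apart at the 3′ end. The strongest RUNX1 fold without ETS1 was that of ZNF670, with 24.2 and 19.6 (21.9 ± 3.27).

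**Figure D4:**
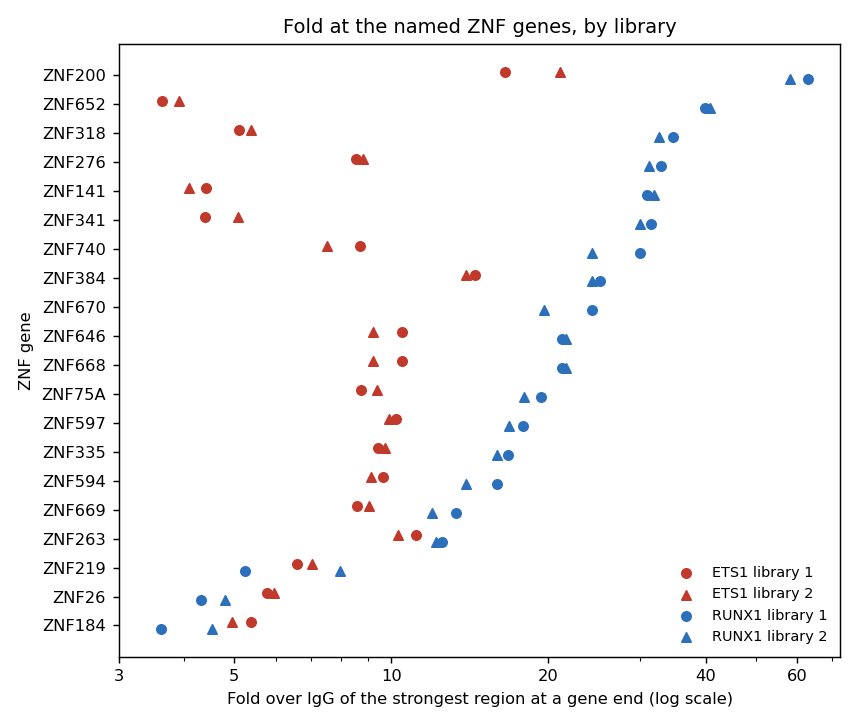
Fold over IgG of the strongest region at an end (x axis, log scale) for the ZNF genes with the highest folds and those where ETS1 exceeds RUNX1 (y axis), with red for ETS1, blue for RUNX1, circles for library 1 and triangles for library 2. By its strongest regions ZNF200 is highest for both factors, ZNF652 has 3.64 and 3.91-fold ETS1 and 39.98 and 40.7-fold RUNX1, and at ZNF184 and ZNF26 both ETS1 libraries lie above both RUNX1 libraries.

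ETS1 exceeded RUNX1 in fold at 3 of the 62 genes with both. These were ZNF26 (5.78 and 5.95-fold ETS1, 4.31 and 4.81-fold RUNX1), ZNF184 (5.39 and 4.95, 3.62 and 4.52) and ZNF219 (6.59 and 7.06, 5.24 and 7.97). The libraries of the factors did not overlap at ZNF26 and ZNF184 and overlapped at ZNF219. The folds come from different antibodies with peak lists of unequal length, so a higher fold is not more binding. The share of other genes with ETS1 above RUNX1 is not given here. Over the genes with both, the median ratio of ETS1 to RUNX1 fold was 0.506, against 0.478 at other genes with both. The strongest regions of the factors overlapped at 59 of 62 genes, the exceptions being ZNF141, ZNF200 and ZNF512B. At these 59 genes the summits lay a median of 56.5 bp apart and at most 100 bp apart in 40 (67.8%). The overlaps and gaps at other genes are not given. Across the 59 ZNF genes, Spearman's rho of the mean folds was 0.563, over genes that share libraries and possibly the IgG control.

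**Figure D5:**
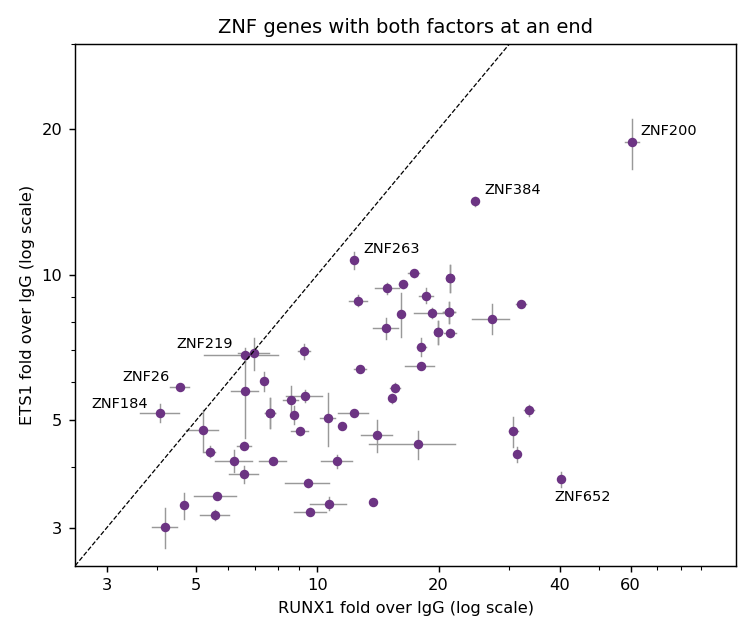
Mean ETS1 fold (y axis) against mean RUNX1 fold (x axis), both over IgG on log scales, for the 62 ZNF genes with both factors, with grey bars from library to library and a dashed line of equal fold. All but ZNF26, ZNF184 and ZNF219 lie below the line, with ZNF200 at 18.8 and 60.5 and ZNF652 at 3.77 and 40.3.

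The ZNF genes were also counted by known role, beside 17.4% of other genes with ETS1 and 45.9% with RUNX1. Of 14 genes for SCAN-domain proteins, 3 had ETS1 (ZNF213, ZNF263 and ZNF174) and 10 RUNX1. In this group RUNX1 ranged from 3.65 ± 0.391 at ZNF496 to 18.1 ± 0.633 at ZNF213. Of 14 genes for blood, lymphoid and general transcription factors, 4 had ETS1 (ZNF362, ZNF148, ZNF384 and ZNF652) and 10 RUNX1. All 4 also had RUNX1. ZNF683, which encodes Hobit, a factor of tissue-resident lymphocytes, had 17.9 and 17.9-fold RUNX1, and ZNF362, a fusion partner in B-lineage leukaemia like ZNF384, had 7.44 and 9.17-fold ETS1 and 15.96 and 16.4-fold RUNX1. ZNF521, expressed in early blood progenitors, had RUNX1 alone (14.1 and 10.7), as did ZNF143 (10.7 and 9.15), ZNF281 (8.85 and 8.11), ZNF410 (7.59 and 7.16) and ZNF76 (10.2 and 9.50). ZNF395, ZNF365, ZNF423 and ZNF217 had neither at an outermost end.

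Of 10 genes whose products act on RNA or ribosomes, 1 had ETS1 and 5 RUNX1. The one with both was ZNF598, the ubiquitin ligase that senses collided ribosomes, with 6.49 and 6.43-fold ETS1 and 16.6 and 19.5-fold RUNX1. ZNF346, whose product binds double-stranded RNA, had 14.9 and 12.7-fold RUNX1, and ZNF326, of the complex that links transcription to splicing, 10.6 and 11.0. ZNF706 had 10.7 and 9.95 and ZNF638 4.28 and 3.77. ZNF593, ZNF330, ZNF622, ZNF106 and ZNF207 had neither, although ZNF593 and ZNF207 had a RUNX1 peak in library 1. Genes of neural and other non-blood development had the lowest counts of the lists, with ETS1 at none of 10 and RUNX1 at 1, ZNF521. ZNF521 and ZNF423 are also counted among the blood and lymphoid factors above. ZNF804A and ZNF804B, ZNF385B and ZNF385D, ZNF503, ZNF703, ZNF488, ZNF423 and the epidermal factor gene ZNF750 had neither at an end. The lists are small, were chosen with earlier results of these data known and carry no test of their own.

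The ETS-type motif had a higher share among ZNF promoters than among others, which was not tested. CGGAAG, on either strand, was found in the window from 250 bp before to 50 bp after the start in 95 of 218 ZNF promoters (43.6%, Wilson interval 37.2 to 50.2), against 24.8% of 14408 other promoters of the same chromosomes and 25.5% of all 15811 in the table. It was in 34 of 58 ZNF promoters with ETS1 at the 5′ end (58.6%, 45.8 to 70.4, against 39.3% of such other promoters), 28 of 66 with RUNX1 alone (42.4%, against 33.4%) and 33 of 94 with neither (35.1%, against 15.6%). The sorting uses regions at the outermost 5′ end. The letters surround the listed start, which can lie elsewhere, as at ZNF362. TGTGGT or TGCGGT, on either strand, was in 45 ZNF promoters (20.6%, 15.8 to 26.5), against 18.9% of other promoters. Neither set of letters contains the other, though matches may overlap at their edges. Median GC content was 65.3% in ZNF promoters with ETS1, 62.5% with RUNX1 alone and 60.2% with neither. In other promoters it was 65.7%, 66.7% and 58.0%. The part of GC content in the motif counts was not tested. Over all ZNF promoters the GC content was 62.3%, against 62.7%, and the ratio of observed to expected CpG was 0.810, against 0.763. A match is a description of the letters and not a bound site.

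The promoters of the genes with the strongest occupancy by both factors are shown from 250 bp to 1 bp before the annotated start, 5′ to 3′ in the direction of transcription, from RefSeq (GRCh38.p14), to set the letters beside the summits. Capitals mark the ETS-type and RUNX-type motifs searched above, on either strand. ZNF646 stands for its pair with ZNF668, and ZNF597, with its strongest region at the other end, is not shown. ZNF106 and ZNF107 are the first genes in alphabetical order without a reproducible region of either factor, though ZNF107 had a RUNX1 peak in library 1.
ZNF200 (chr16:3235159-3235408, minus strand): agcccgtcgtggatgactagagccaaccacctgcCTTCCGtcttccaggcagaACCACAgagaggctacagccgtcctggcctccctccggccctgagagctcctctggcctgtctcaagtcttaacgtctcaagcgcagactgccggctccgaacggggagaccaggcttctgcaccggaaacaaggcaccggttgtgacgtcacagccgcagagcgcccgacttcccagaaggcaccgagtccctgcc
ZNF384 (chr12:6689376-6689625, minus strand): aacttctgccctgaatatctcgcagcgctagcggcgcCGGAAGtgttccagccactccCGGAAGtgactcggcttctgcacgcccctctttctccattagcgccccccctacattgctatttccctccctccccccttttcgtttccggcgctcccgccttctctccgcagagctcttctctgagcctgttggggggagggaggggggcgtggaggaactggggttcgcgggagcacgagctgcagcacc
ZNF263 (chr16:3283241-3283490, plus strand): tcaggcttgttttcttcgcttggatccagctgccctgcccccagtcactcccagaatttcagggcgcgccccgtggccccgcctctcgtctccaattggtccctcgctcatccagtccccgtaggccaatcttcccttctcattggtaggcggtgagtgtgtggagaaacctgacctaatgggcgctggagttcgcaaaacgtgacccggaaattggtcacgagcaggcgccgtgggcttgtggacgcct
ZNF646 (chr16:31074172-31074421, plus strand): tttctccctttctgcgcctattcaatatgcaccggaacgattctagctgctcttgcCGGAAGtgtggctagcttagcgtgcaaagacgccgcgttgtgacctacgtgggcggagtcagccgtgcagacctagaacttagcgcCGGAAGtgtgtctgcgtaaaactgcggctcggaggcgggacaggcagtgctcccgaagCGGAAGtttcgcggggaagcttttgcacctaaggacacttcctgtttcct
ZNF106 (chr15:42491142-42491391, minus strand): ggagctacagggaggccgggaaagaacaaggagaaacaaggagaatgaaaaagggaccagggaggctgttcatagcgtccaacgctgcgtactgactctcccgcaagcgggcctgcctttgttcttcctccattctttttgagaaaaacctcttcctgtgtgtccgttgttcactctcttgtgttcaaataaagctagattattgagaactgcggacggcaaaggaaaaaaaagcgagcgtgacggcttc
ZNF107 (chr7:64665883-64666132, plus strand): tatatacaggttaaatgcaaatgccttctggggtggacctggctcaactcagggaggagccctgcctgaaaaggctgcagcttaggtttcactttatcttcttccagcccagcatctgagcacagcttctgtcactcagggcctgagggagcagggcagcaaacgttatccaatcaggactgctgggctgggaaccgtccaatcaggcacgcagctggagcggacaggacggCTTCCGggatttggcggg

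In ZNF200 an ETS-type motif on the opposite strand lies 216 to 211 bp before the start and a RUNX-type motif, also on the opposite strand, 197 to 192 bp before it, beside the ETS1 summit 163.5 bp upstream. ZNF384 has the ETS-type motif at 213 to 208 and at 192 to 187 bp before the start shown, while the summits lie 108 bp inside that transcript. ZNF646 has it 3 times, first at 194 bp before its start, with the ETS1 summit 136 bp inside. ZNF263, next to ZNF384 in ETS1 fold, holds none of the motifs in this window, and its ETS1 summit lies 291.5 bp upstream, outside the letters shown. ZNF107 holds an ETS-type motif 18 to 13 bp before its start without ETS1, and ZNF106 holds none. No relation between letters and occupancy can be read from these few promoters. The letters at the ETS1 summit of ZNF263 were not searched. ZNF107 lies in the cluster nearest the centromere of chromosome 7, where a lack of peaks is uncertain.

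The ZNF genes of chromosome 19 were the closest set for comparison. Of 250 there, 110 had ETS1 (44.0%, 38.0 to 50.2), against 37.8% of other genes of chromosome 19, and 139 had RUNX1 (55.6%, 49.4 to 61.6), against 62.2%. The RUNX1 share was 55.4% outside chromosome 19 and 55.6% on it, above other genes outside (45.9%) and below them on it (62.2%). The ETS1 share was 23.2% outside and 44.0% on it, above other genes in both cases (17.4% and 37.8%). ETS1 without RUNX1 was found at 0 of 267 ZNF genes outside chromosome 19 and at 18 of 250 on it (7.20%, 4.603 to 11.1). CGGAAG was in 43.6% of ZNF promoters outside chromosome 19 and in 58.4% of those on it. Within the set on chromosome 19 it was not more frequent with ETS1. It was in 54.6% of promoters with ETS1 at the 5′ end, 62.2% with RUNX1 alone and 61.2% with neither. No test of these differences was made, since genes of a cluster are not independent.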

How the data were processed

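Binding was measured by CUT&Tag in 4 libraries of 6T-CEM cells, 2 per antibody. Per the submitters' processing notes, build hg38 and the tools Bowtie2, bcl2fastq 2.17 and MACS3 3.0.0a6 were used, listed there without role or order. The authors called peaks in each library against IgG, per the file headers (the peak names). For each peak the deposited lists give a fold (a ratio to IgG at the summit), −log10 p, −log10 q and a score that follows −log10 q; the score was not used. Call threshold, Bowtie2 version and read filters: not given in the sources used here.

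For each antibody, touching or overlapping peaks were merged across its libraries, and regions with a peak of each library were kept (5055 for ETS1, 22802 for RUNX1). A region touching the window of 1000 bp around an outermost end of a gene was counted for it, with the fold of its strongest peak per library. Gene ends came from RefSeq (GRCh38.p14). 153 coding genes listed by scaffold coordinates were left out. Strands, starts and promoters came from the RefSeq promoter table, which holds 218 of the 267 ZNF genes. The other 49 were not used for these. Pileup and IgG expectation were solved from each deposited fold and −log10 p, which MACS links by a Poisson distribution; all 420 peaks used had a solution within 0.01 in −log10 p or 5e-05 of its value. This was chosen after the data were examined.

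Shares have 95% Wilson intervals. The only tests are exact permutation tests over libraries. The ZNF set and the role lists were chosen with earlier results of these data known. Named genes are the 10 with the highest fold of each factor, those with ETS1 above RUNX1, and the lists. Classes by protein domain were not computed, as no protein sequences were used here. Assignment to gene ends was tested on simulated peaks. Python 3.11.15 with numpy 2.4.6, pandas 2.3.3 and scipy 1.17.1 was used.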

Additional observations from a re-analysis of the deposited data

How the results depend on the processing

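The ZNF share stayed above that of other genes, for both factors, in every setting tried except 1: without chromosomes 12 and 16, added after seeing their wide ETS1 gaps, so that a lower ratio was fixed by the choice, ETS1 was at 36 ZNF genes, both factors were at 36, and the ratio of the ZNF share to that of other genes was 0.972 for ETS1 (1.14 for RUNX1). The main ratios were 1.33 for ETS1 and 1.21 for RUNX1. They were 1.23 and 1.10 over the gene body and 10 kb, 1.52 and 1.25 at the 5′ end only, 1.55 and 1.39 for genes that share no end, and 1.43 and 1.25 at any annotated start (added after seeing the data). The ratios at the 5′ end and at any start cover only the 218 ZNF genes and 14408 other genes with a listed strand. They therefore differ from the main ratios in the genes covered as well. Of these genes, 58 ZNF genes and 2676 other genes had ETS1 at either end. Taking the 5611 strongest peaks of each library gave 1.06 for RUNX1, and a peak of either library 1.25. Without replicate 1 and without replicate 2 it was 1.37 and 1.28 for ETS1 (69 and 68 genes) and 1.20 and 1.25 for RUNX1 (150 and 160 genes). Counts moved by over 1.5 times in a few settings. With −log10 q of at least 20, ETS1 and both factors were at 33 genes each. With equal numbers of peaks, ETS1 was at 60, RUNX1 at 37 and both factors at 29, which turns the order of the factors. Among genes that share no end, ETS1 and both factors were at 36 each. Windows of 500 and 2500 bp, summits in place of regions, weighting of other genes by chromosome and leaving out read-through loci (added after seeing the data) moved no count by 1.5 times. With the replicate number as a block, the difference between ETS1 and RUNX1 libraries in the ZNF share stayed at -32.4 percentage points and that in the ratio at 0.102, with an exact sign-change p of 0.5, the smallest that 2 pairs allow; the libraries share only a number. Without replicate 1 and without replicate 2 the difference was -30.3 and -34.5 points and that of the ratio 0.176 and 0.0269. Taking the peak nearest to the gene end moved 4 of 39 folds of named genes by more than their SD: ETS1 at ZNF597 to 7.61, and RUNX1 at ZNF597 to 7.82, at ZNF141 to 15.5 and at ZNF200 to 31.5, which is then no longer the highest. Total read depth is unknown. The weakest peaks at these genes have a pileup of 25 and 21 for ETS1 and of 31 and 27 for RUNX1, so a gene without a region may hold a weaker one.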
